A study of Mus musculus with 4 samples.

Results

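The genes described here are 10 matricellular and related matrix glycoproteins, chosen by name: Tnc, Tnn, Tnxb, Postn, Fn1, Sparc, Thbs1, Thbs2, Tgfbi and Cthrc1. All 10 were found among the 32285 genes of the tables. The data were 4 single-cell RNA libraries from the digits of wild-type FVB/NJ mice, labelled 8 weeks old and pooled from males and females. One library came from homeostatic, unamputated tissue at the level of the middle phalanx (P2), and 1 each from fibrosing tissue 12, 17 and 28 days post-amputation (dpa) through that phalanx, a level from which the digit does not regenerate. The labels do not give the number of animals pooled, and live cells were sorted after enzymatic digestion, so the values are those of cells that survived both steps. Each group held 1 library. No test between groups was possible, and intervals below cover counting error only.

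Matricellular proteins are secreted into the matrix, where they bind collagens, growth factors and integrins and alter how cells attach and respond, more than they bear load. The tenascins (tenascin-C from Tnc, tenascin-W from Tnn, tenascin-X from Tnxb) and periostin (Postn) bind collagen fibres and integrins. Tenascin-C and periostin are known for their strong expression in healing wounds, in periosteum and in tendon, whereas tenascin-X belongs to the loose connective tissue of resting skin.

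The members lie on 8 chromosomes (GRCm38 coordinates of GENCODE M21, matched by gene identifier), and all are annotated as protein-coding. Tnc spans 63959785 to 64047015 on chromosome 4, Tnn 160085029 to 160153580 and Fn1 71585520 to 71653200 on chromosome 1, Tnxb 34670535 to 34719815 and Thbs2 14665500 to 14694235 on chromosome 17, and Postn 54361109 to 54391037 on chromosome 3. Sparc spans 55394500 to 55423183 on chromosome 11, Thbs1 118111876 to 118127133 on chromosome 2, Tgfbi 56609523 to 56639562 on chromosome 13 and Cthrc1 39076932 to 39087121 on chromosome 15. Tnc, Tnxb, Fn1 and Thbs1 overlap other annotated genes on the opposite strand, among them 8030451A03Rik at Tnc, so reads shared with those neighbours are uncertain where strand was not used.

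Promoter windows from RefSeq (GRCm38.p6, 250 bases before to 50 after a start site) matched 7 of the 10 members. The 3 shown belong to Tnc and Postn, which were lower together in tenocyte-like cells late after amputation, and to Tnxb, whose UMIs lay mostly in fibroblast-like cells and whose level there did not pass the 2-fold rule at any time. Where a gene has 2 listed starts, the downstream one was taken. Capitals mark letters that match, on either strand, the TATA motif searched as TATANA. They also mark the AP-1 motif, searched as TGANTCA. The TEAD motif was searched as GGAATG and the CArG box by its usual letters. Each line is read 5′ to 3′ on the gene's own strand.
Tnc, minus strand, chr4:64046887-64047186: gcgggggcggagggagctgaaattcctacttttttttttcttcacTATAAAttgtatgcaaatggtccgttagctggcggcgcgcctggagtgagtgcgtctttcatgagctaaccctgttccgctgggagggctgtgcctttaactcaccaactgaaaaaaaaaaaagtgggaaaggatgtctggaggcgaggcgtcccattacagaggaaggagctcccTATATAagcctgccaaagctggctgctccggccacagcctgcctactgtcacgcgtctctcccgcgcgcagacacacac
Postn, plus strand, chr3:54360857-54361156: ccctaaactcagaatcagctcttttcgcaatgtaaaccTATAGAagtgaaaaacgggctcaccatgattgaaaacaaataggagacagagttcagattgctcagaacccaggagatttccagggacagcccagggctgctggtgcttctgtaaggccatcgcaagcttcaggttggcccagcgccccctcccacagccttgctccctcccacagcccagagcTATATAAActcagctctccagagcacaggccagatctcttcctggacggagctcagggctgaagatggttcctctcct
Tnxb, plus strand, chr17:34670285-34670584: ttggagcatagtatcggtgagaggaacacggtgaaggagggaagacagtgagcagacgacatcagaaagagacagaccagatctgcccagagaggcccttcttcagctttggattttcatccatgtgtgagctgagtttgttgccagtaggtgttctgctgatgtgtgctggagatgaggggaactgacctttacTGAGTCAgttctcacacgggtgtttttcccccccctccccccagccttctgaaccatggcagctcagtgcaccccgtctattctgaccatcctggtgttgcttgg
The Tnc and Postn windows each hold a TATATA run, beginning at -29 and -28 from the start site, and in Postn the run overlaps a second match at -26. The Tnxb window holds no TATANA match and a TGAGTCA run at -55. Of the windows not shown, that of Tgfbi, also lower in tenocyte-like cells at 28 dpa, holds no match to any motif searched. Cthrc1, lower there too, had no window. Tnn and Thbs2, not called lower in those cells, have a TATANA match at -156 and -126, and Sparc, also not called lower, has no match. Over 32851 windows of the same length, 24.7% hold a TATANA match, 7.81% the AP-1 letters, 14.7% the TEAD letters and 1.63% a CArG box. These are matches of letters only, with no measure of binding.

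UMIs (unique molecular identifiers, each standing for 1 captured RNA molecule) were summed over the cells of a class in a library and are given as CPM, the count divided by all UMIs of that class in the library and scaled to 1e+06. Each change is a log2 ratio, in which the CPM of the amputated library, plus 1, is divided by that of the unamputated one, plus 1. A gene was called higher or lower at a 2-fold change with at least 10 CPM in the higher library. Cell classes are marker-defined and carry the suffix -like. They came from clusters built without the members, although Tnn and Thbs2 were among the 10 leading genes of the tenocyte-like cluster and Tnxb of a fibroblast-like one. All 8 fibroblast markers were detected in fibroblast-like cells and all 5 tenocyte markers in tenocyte-like cells in each library. Detected here means at least 1 UMI in the sum of the class, which markers of other classes also reached, so this does not bear on the class names.

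In all, 34951 cells were kept, 6514 to 10394 per library, with medians of 6654 to 11630 UMIs. In the 12 dpa library 3535 cells had a female call and 0 a male call, whereas the other libraries held 4625 to 8091 cells with a male call and at most 1 with a female call, against the label of pooled sexes. Every 12 dpa comparison is therefore also a comparison of sexes, and time and sex cannot be told apart there. Pairs of libraries shared 19 to 87 cell barcodes. The makeup of the connective tissue also differed: fibroblast-like cells numbered 703, 297, 1826 and 2458 in the unamputated, 12, 17 and 28 dpa libraries, tenocyte-like cells 704, 1821, 356 and 352, and osteoblast-like cells 224, 6, 366 and 361. The last class was too small to use at 12 dpa.

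In the unamputated library most members were highest in stromal classes, and several shared the same ones. Tnn, which encodes tenascin-W, was highest in tenocyte-like cells, which had 1297, 980, 1021 and 1008 CPM in the unamputated, 12, 17 and 28 dpa libraries, against 133, 140, 86.3 and 135 CPM in fibroblast-like cells. Osteoblast-like cells had 457 CPM unamputated, 453 at 17 dpa and 216 at 28 dpa. Schwann-like cells were at 15.9 to 45.8 CPM, near the 32.1 CPM that T and NK-like cells, a class taken as background, reached at 12 dpa. Tenocyte-like cells held 79.6% of all Tnn UMIs in the unamputated library and 95.4%, 42.9% and 45.6% after amputation. An unnamed stromal cluster led by Chad, Comp and Ogn held a further 26.7% at 17 dpa, with 815 CPM.

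Tnc, encoding tenascin-C, was highest in osteoblast-like cells, with 2285 CPM unamputated, 1575 at 17 dpa and 952 at 28 dpa. Tenocyte-like cells followed with 1282, 833, 1045 and 438 CPM, and Schwann-like cells with 903, 633, 271 and 331 CPM. The order of these 3 classes was the same in each library in which they were all measured. Mural-like cells (pericytes and smooth muscle) had 180 to 240 CPM and fibroblast-like cells 169, 255, 91.3 and 126 CPM, so that the neighbours fibroblast-like and mural-like changed places at 12 dpa. Keratinocyte-like cells were lower, at 55.8 to 91.1 CPM, and macrophage-like cells had at most 9.98 CPM.

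Tnxb, encoding tenascin-X, was higher in fibroblast-like than in tenocyte-like or osteoblast-like cells. Fibroblast-like cells had 522, 447, 862 and 960 CPM and held 76.0%, 60.8%, 91.7% and 91.9% of its UMIs in the 4 libraries. Tenocyte-like cells had only 20.8, 16.6, 77.3 and 33.6 CPM, and osteoblast-like cells 0.985, 5.75 and 18.7 CPM. Mural-like cells had 58.3, 38.2, 98.5 and 115 CPM and Schwann-like cells 50.7, 33.0, 94.0 and 170 CPM. The gene was also higher at 28 dpa in classes not known for it: macrophage-like cells had 1.12, 2.63, 7.37 and 23.5 CPM and keratinocyte-like cells 2.81, 1.76, 7.12 and 13.4 CPM. T and NK-like cells had 2.78, 0, 10.2 and 9.48 CPM. The part of free RNA in these low values was not tested.

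Postn, the periostin gene, was carried by most of the connective tissue. Tenocyte-like cells had 6785, 5785, 4307 and 1092 CPM, fibroblast-like cells 3908, 4052, 2732 and 1417, and osteoblast-like cells 2061 unamputated, 2656 at 17 dpa and 2090 at 28 dpa. Schwann-like cells had 3410, 2782, 1742 and 2769 CPM. At 28 dpa the order of these classes differed from the unamputated one, with Schwann-like cells highest and tenocyte-like cells lowest. Cthrc1, which encodes a secreted protein of activated mesenchymal cells, was also stromal: 1292, 1169, 1208 and 526 CPM in tenocyte-like, 707, 819, 471 and 422 in fibroblast-like and 497, 332 and 187 in osteoblast-like cells (unamputated, 17 and 28 dpa). Thbs2, a thrombospondin gene, had 1209, 1071, 814 and 666 CPM in tenocyte-like, 257, 244, 229 and 279 in fibroblast-like and 204 to 339 in Schwann-like cells.

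Thbs1, the thrombospondin that can activate latent TGF-beta, had its highest levels outside the stroma, in neutrophil-like cells, with 1244 CPM unamputated and 1639 at 17 dpa, the only libraries with enough of them. Tenocyte-like cells had 609, 460, 345 and 759 CPM, mural-like cells 477, 323, 429 and 547, monocyte and dendritic-like cells 342, 172, 433 and 324, and fibroblast-like cells 315, 264, 194 and 151. Macrophage-like cells had 40.8, 31.5, 13.2 and 7.55 CPM, but this decline depended on the clustering: at a Leiden resolution of 0.5 the log2 ratios at 17 and 28 dpa were 0.30 and 0.73. This class joined a cluster led by Ms4a7, with 43.5 CPM unamputated and 20.3 at 28 dpa, and one led by F13a1, with 1.66 and 5.28, and the cells shifted from the former to the latter.

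Fn1 and Tgfbi were shared between stroma and phagocytes. Fn1, encoding fibronectin, the provisional matrix protein to which cells attach, had 3329, 2980, 4153 and 6769 CPM in fibroblast-like cells and 3121, 2374, 4683 and 4341 in tenocyte-like cells. The macrophage-like class changed its makeup: a cluster led by Ms4a7 and Mmp12 held 1472, 1024, 718 and 282 of its cells in the 4 libraries, and one led by F13a1 and Pf4 held 114, 59, 595 and 1684. The class had 1114, 909, 851 and 1027 CPM of Fn1. Within the Ms4a7 cluster Fn1 was 1164 CPM unamputated and 1858 at 28 dpa (log2 ratio 0.67), and within the F13a1 cluster 382 and 878 (1.20), so both clusters were higher at 28 dpa while the whole class was not. Tgfbi, encoding a periostin relative that binds integrins, was highest in macrophage-like cells with 827, 704, 698 and 891 CPM, and these held 40.2%, 31.2%, 34.9% and 47.5% of its UMIs. At 28 dpa Tgfbi went from 840 to 498 CPM in the Ms4a7 cluster and from 632 to 962 in the F13a1 cluster. Fibroblast-like cells had 366, 257, 452 and 436 CPM of Tgfbi and keratinocyte-like cells 153, 208, 136 and 121. Sparc, encoding a collagen-binding protein abundant in bone, was detected at high levels through the stroma and vessels: 8587 to 10409 CPM in fibroblast-like, 11319 to 16796 in tenocyte-like, 3469 to 3860 in mural-like and 2502 to 3212 in vascular endothelial-like cells. In osteoblast-like cells it was 11528 CPM unamputated, 17639 at 17 dpa and 21767 at 28 dpa.

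**Figure D1:**
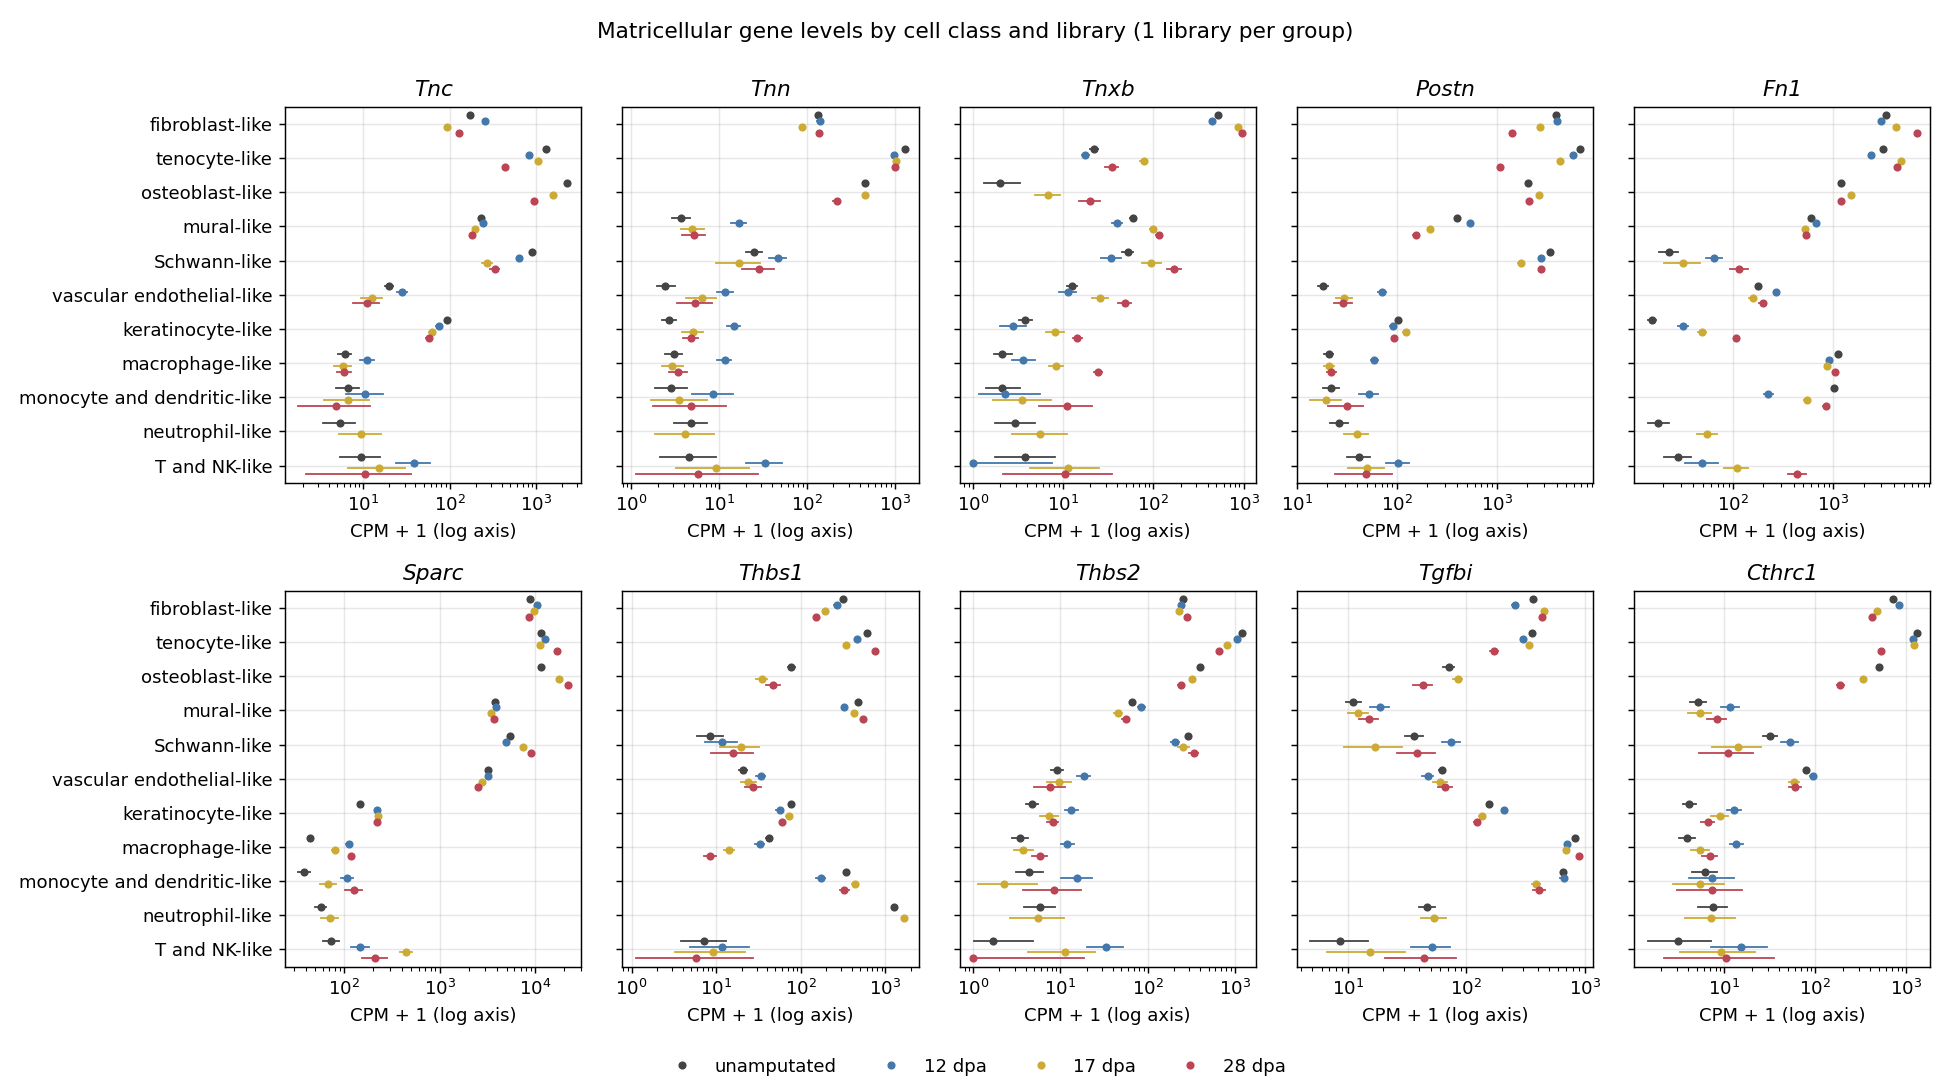
CPM + 1 on a log axis of each member (panels) in 11 marker-defined classes (rows) and 4 libraries (colours), with exact Poisson 95% intervals as horizontal lines; classes of under 50 cells in a library are left out. Tnn and Thbs2 are highest in tenocyte-like cells, Tnc in osteoblast-like, Tnxb in fibroblast-like, Tgfbi in macrophage-like and Thbs1 in neutrophil-like cells.

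Which cells held a gene's UMIs shifted between libraries together with the number of cells. Of all Postn UMIs, tenocyte-like cells held 55.4%, 86.4%, 22.7% and 8.22% and fibroblast-like cells 23.8%, 7.45%, 53.5% and 67.5%. Of all Fn1 UMIs, fibroblast-like cells held 29.0%, 11.0%, 60.4% and 78.5%. Of all Tnc UMIs, osteoblast-like cells held 23.9% unamputated, 39.4% at 17 dpa and 24.2% at 28 dpa. A level taken over the whole tissue mixes the number of cells of a type with the RNA per cell, and the ratios below were therefore taken within a class.

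**Figure D2:**
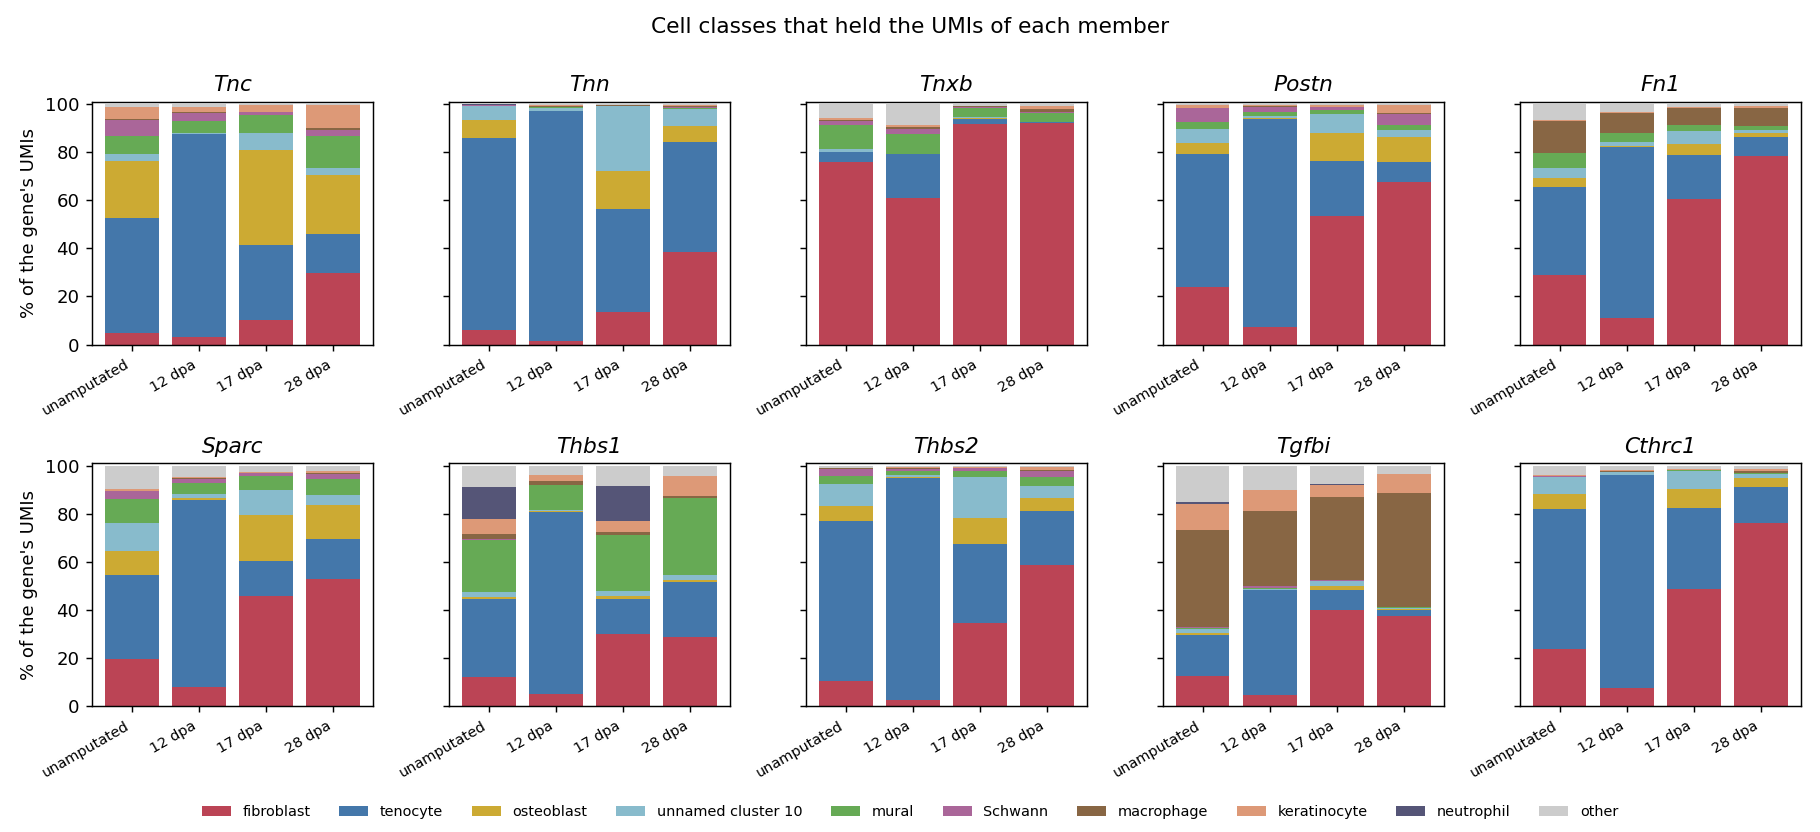
Percent of each member's UMIs (panels) that lay in cells of each class (colours), for the 4 libraries, so that each bar adds to 100%. Tenocyte-like cells hold most stromal members at 12 dpa, with 86.4% of Postn UMIs, and fibroblast-like cells most at 28 dpa, with 67.5%.

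In fibroblast-like cells few members passed the 2-fold rule, none of them before 28 dpa. At 12 dpa, 0 of the 10 were at least 2-fold higher and 0 at least 2-fold lower, beside 1.51% and 6.25% of 9131 genes. At 17 dpa the counts were again 0 and 0, beside 0.398% and 1.08% of all genes tested. At 28 dpa, 1 member (Fn1) was higher, beside 1.99% of genes, and 2 (Postn and Thbs1) were lower, beside 5.23%. The median log2 ratio of the members was -0.01, -0.34 and 0.00 at 12, 17 and 28 dpa, and that of all genes -0.22, -0.04 and -0.13. With 10 members these counts are too small to set the members apart from other genes, and the values below describe single genes. At 17 dpa the sizes were largest for Tnc (-0.88), Tnxb (0.72) and Thbs1 (-0.70), under 2-fold. All 3 comparisons share the unamputated library, so an unusual value there would enter each of them.

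Postn in fibroblast-like cells was 3908 CPM (95% interval 3875 to 3942) in the unamputated library. It was 4052 (3989 to 4116) by 12 dpa, 2732 (2711 to 2754) by 17 dpa and 1417 (1402 to 1432) by 28 dpa. The unamputated and 12 dpa values were similar and the 28 dpa value was the lowest, with a log2 ratio of -1.46 (-1.48 to -1.44). It stayed past 2-fold under each of 13 alternative settings, between -1.88 and -1.34. The difference was present within each of the 3 fibroblast-like clusters with enough cells. In the cluster led by Ccn3, Mfap5 and Igfbp6 the levels were 5008, 4319, 3286 and 1323 CPM, and in the cluster led by Lsamp, Pi16 and Hpse2 4067, 4631, 3228 and 1877 CPM. In the cluster led by Fgl2, Itih5 and Hcn4, too small at 12 dpa, they were 782 CPM unamputated, 442 at 17 dpa and 363 at 28 dpa. The log2 ratios at 28 dpa were -1.92, -1.11 and -1.10.

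Cthrc1 was also lower within each cluster, more so than in the class as a whole. In the class its log2 ratio was -0.74 (-0.79 to -0.71) at 28 dpa, under 2-fold. Within the same 3 clusters it was -1.07, -1.50 and -1.57. The first cluster, where Cthrc1 was highest (1291 CPM unamputated and 613 at 28 dpa), grew from 161 of the 703 fibroblast-like cells to 1125 of the 2458. With clusters weighted as in the unamputated library the class ratio was -1.26.

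Fn1 in fibroblast-like cells was 3329 CPM (3298 to 3360) before amputation, 2980 (2926 to 3035) on day 12, 4153 (4126 to 4179) on day 17 and 6769 (6736 to 6802) on day 28. The 28 dpa library had the highest value, with a log2 ratio of 1.02 (1.01 to 1.04), which lies just past the 2-fold line. It fell under that line with the unamputated cluster mix (0.76), as a mean over single cells (0.96) and with no doublets removed (0.96). By cluster the 28 dpa ratios were 0.92, 0.73 and -0.04, the last in the Fgl2 cluster, which had 2208 CPM unamputated and 2150 at 28 dpa.

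Thbs1 in fibroblast-like cells was 315 CPM (306 to 325) before amputation, 264 (248 to 281) on day 12, 194 (188 to 200) on day 17 and 151 (147 to 156) on day 28. The log2 ratio at 28 dpa was -1.05 (-1.12 to -0.99), and it was past 2-fold in 8 of 13 alternatives. With the unamputated cluster mix it was -0.75. The fall was steepest in the Ccn3 cluster, with 403, 221, 97.8 and 89.7 CPM (-2.16 at 28 dpa), and the Pi16 cluster was at -0.74, under 2-fold. In the Fgl2 cluster, which had the highest level, Thbs1 was 847 CPM unamputated and 839 at 28 dpa. Thbs1 is quickly induced by stress, so the summed level of 15 genes known to respond to tissue dissociation is given beside it: 4648, 2703, 6521 and 5030 CPM in the 4 libraries. Of those 15 genes, 0 were higher and 4 lower at 12 dpa (beside 1.51% and 6.25% of all genes), 1 and 0 at 17 dpa (0.398% and 1.08%), and 0 and 0 at 28 dpa (1.99% and 5.23%). Fos was at 1060, 445, 1581 and 1062 CPM, Fosb at 153, 57.8, 184 and 91.0, Hspa1b at 360 CPM unamputated and 158 at 12 dpa, and Zfp36 at 151, 91.1, 383 and 292. The part of this response in the Thbs1 values was not tested.

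Tnxb in fibroblast-like cells was 522 CPM (510 to 534) before amputation, 447 (426 to 469) on day 12, 862 (850 to 874) on day 17 and 960 (947 to 972) on day 28. The 2 later libraries were the higher ones, with log2 ratios of 0.72 and 0.88, under 2-fold, and 3 of 13 alternatives put the 28 dpa value past it: 1.45 with a looser filter on cells, 1.25 at Leiden resolution 2 and 1.28 when doublets were kept. Within clusters the 28 dpa ratios were 1.09, 0.92 and 0.44. The Pi16 cluster had the highest levels, 629, 688, 1081 and 1189 CPM.

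Tnc in fibroblast-like cells was 169, 255, 91.3 and 126 CPM, highest at 12 dpa (log2 ratio 0.59) and lowest at 17 dpa (-0.88), the largest sizes among the members at those times, under 2-fold. The clusters went opposite ways at 12 dpa: the Ccn3 cluster had 340 CPM unamputated and 216 at 12 dpa (-0.65), and the Pi16 cluster 65.0 and 180 (1.46). At 28 dpa the ratios in the Ccn3, Pi16 and Fgl2 clusters were -0.90, -0.85 and -1.21, against -0.41 in the class. The choice of cells mattered for Tnc: with the looser filter, the 28 dpa ratio moved from -0.41 to -2.37, and that of Tnn from 0.02 to -1.88. Within clusters at 28 dpa, Tnn was at -0.61 in the Ccn3 and -1.50 in the Pi16 cluster and did not reach 10 CPM in the Fgl2 cluster, and Thbs2 was at -0.32, -0.03 and -1.05. Both genes were highest in the Ccn3 cluster among these 3, the one that held more of the cells at 28 dpa. In the class, Tgfbi was -0.51, 0.30 and 0.25 on the log2 scale at 12, 17 and 28 dpa, Thbs2 -0.07, -0.16 and 0.12, and Sparc 0.25, 0.14 and -0.03.

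**Figure D3:**
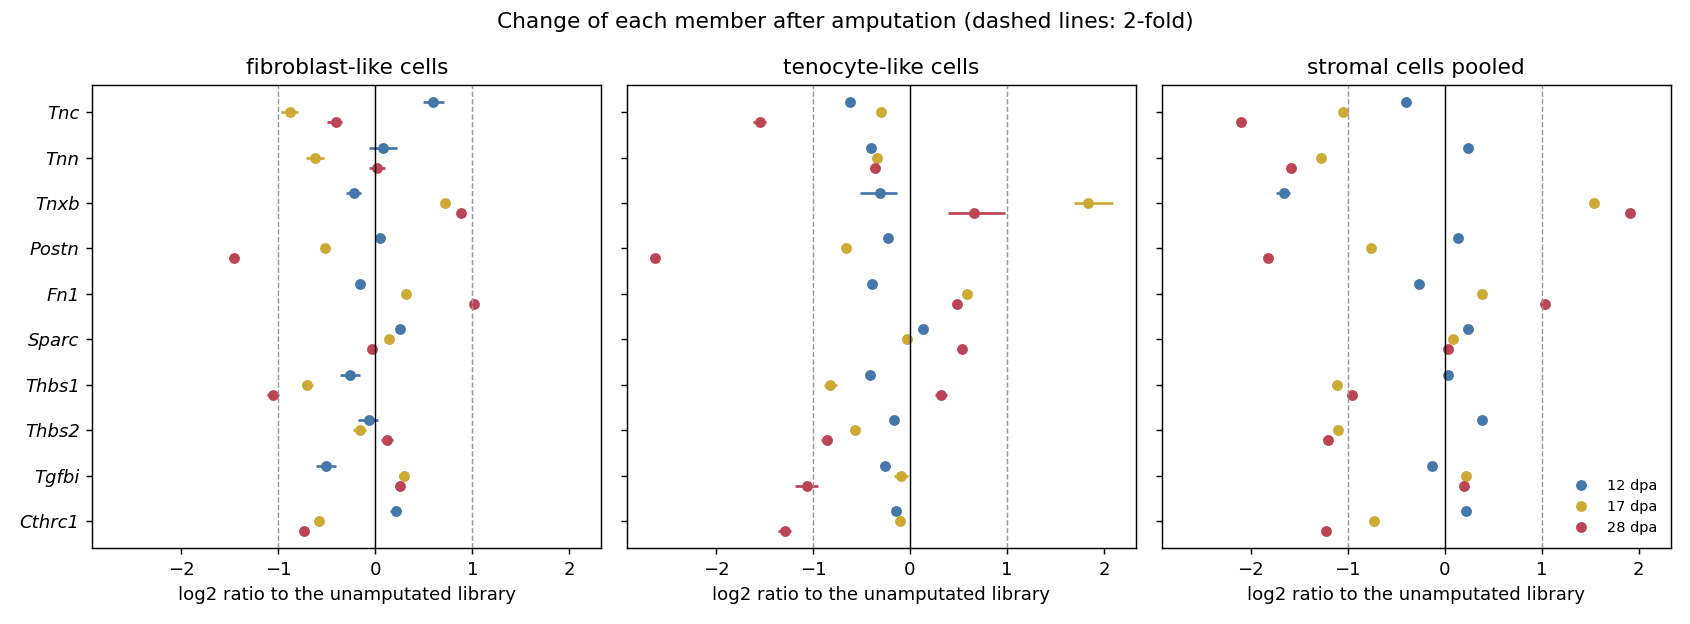
log2 ratio of CPM + 1 to the unamputated library for each member at 12, 17 and 28 dpa (colours) in fibroblast-like, tenocyte-like and all stromal cells pooled, with 95% counting intervals as lines and the 2-fold rule dashed. In fibroblast-like cells Postn sits at -1.46 at 28 dpa, and in tenocyte-like cells at -2.63.

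The share of cells with at least 1 UMI gave the same order of libraries as the CPM for Postn and Tnxb. After each cell was thinned to 2000 UMIs, leaving out 7, 7, 35 and 59 shallower fibroblast-like cells, Postn was detected in 81.5%, 84.5%, 69.8% and 60.3% of fibroblast-like cells. Without thinning the shares were 91.3%, 93.9%, 84.8% and 76.7%, at median depths of 18374, 12607, 11922 and 8781 UMIs. In T and NK-like cells, at medians of 4744.5, 3280.5, 3789 and 2835 UMIs, thinned shares for Postn were 7.25%, 18.8%, 6.93% and 10.5%. Tnxb was detected in 52.4%, 47.6%, 69.1% and 73.1% of thinned fibroblast-like cells, against at most 3.51% of T and NK-like cells. Fn1 was already present in 84.9% of thinned unamputated cells and in 92.9% at 28 dpa. Its share in T and NK-like cells was 4.58%, 9.42%, 14.9% and 31.6%, so this background was also highest at 28 dpa.

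In tenocyte-like cells, 0 members were at least 2-fold higher and 0 lower at 12 dpa, beside 0.251% and 0.525% of all genes. At 17 dpa 1 was higher, beside 1.13%, and 0 were lower, beside 1.11%. At 28 dpa 0 were higher, beside 4.66%, and 4 were lower, beside 8.53%. The median log2 ratio of the members was -0.29, -0.20 and -0.61 at the 3 times, and that of all genes -0.13, -0.04 and -0.12.

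The 4 lower members at 28 dpa were Postn, Tnc, Cthrc1 and Tgfbi. Postn was 6785 CPM (6747 to 6823), 5785 (5758 to 5812), 4307 (4254 to 4359) and 1092 (1059 to 1125), lower in each successive library, and the 28 dpa log2 ratio was -2.63 (-2.68 to -2.59). Tnc was 1282 (1266 to 1299), 833 (823 to 843), 1045 (1019 to 1071) and 438 (417 to 459), lower at 12 than at 17 dpa, with a ratio of -1.55 (-1.62 to -1.48) at 28 dpa. Cthrc1 stood at 1292, 1169 and 1208 CPM up to 17 dpa and at 526 at 28 dpa, a ratio of -1.29 (-1.36 to -1.23). These 3 stayed past 2-fold in 10 of 10 alternatives. Tgfbi was 359, 299, 337 and 171 CPM, a ratio of -1.06 (-1.19 to -0.95), past 2-fold in 7 of 10.

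Members of the same cells did not all follow. Tnn was 1297 CPM unamputated and 1008 at 28 dpa (log2 ratio -0.36). Thbs2 was at -0.86, Thbs1 at 0.32, Fn1 at 0.48 and Sparc at 0.54 at 28 dpa. The stricter filter on cells turned the last 3 to -0.46, -0.07 and -0.21. The higher call at 17 dpa was Tnxb, 20.8 to 77.3 CPM, with a ratio of 1.84 that became 0.42 with no doublets removed. The 28 dpa tenocyte-like cells also differed in their markers: the 5 tenocyte markers summed to 1150, 1309, 1444 and 3611 CPM, and 6 smooth muscle markers to 658, 1001, 468 and 160 CPM. The 6 chondrocyte markers summed to 256 to 323 CPM before 28 dpa and to 732 CPM there. All 6 smooth muscle and all 6 chondrocyte markers were detected in each library. The 15 dissociation-response genes summed to 2060, 1387, 1446 and 999 CPM in these cells, and 7 of them were at least 2-fold lower at 28 dpa, beside 8.53% of genes. The part of these genes in the member values was not tested.

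**Figure D4:**
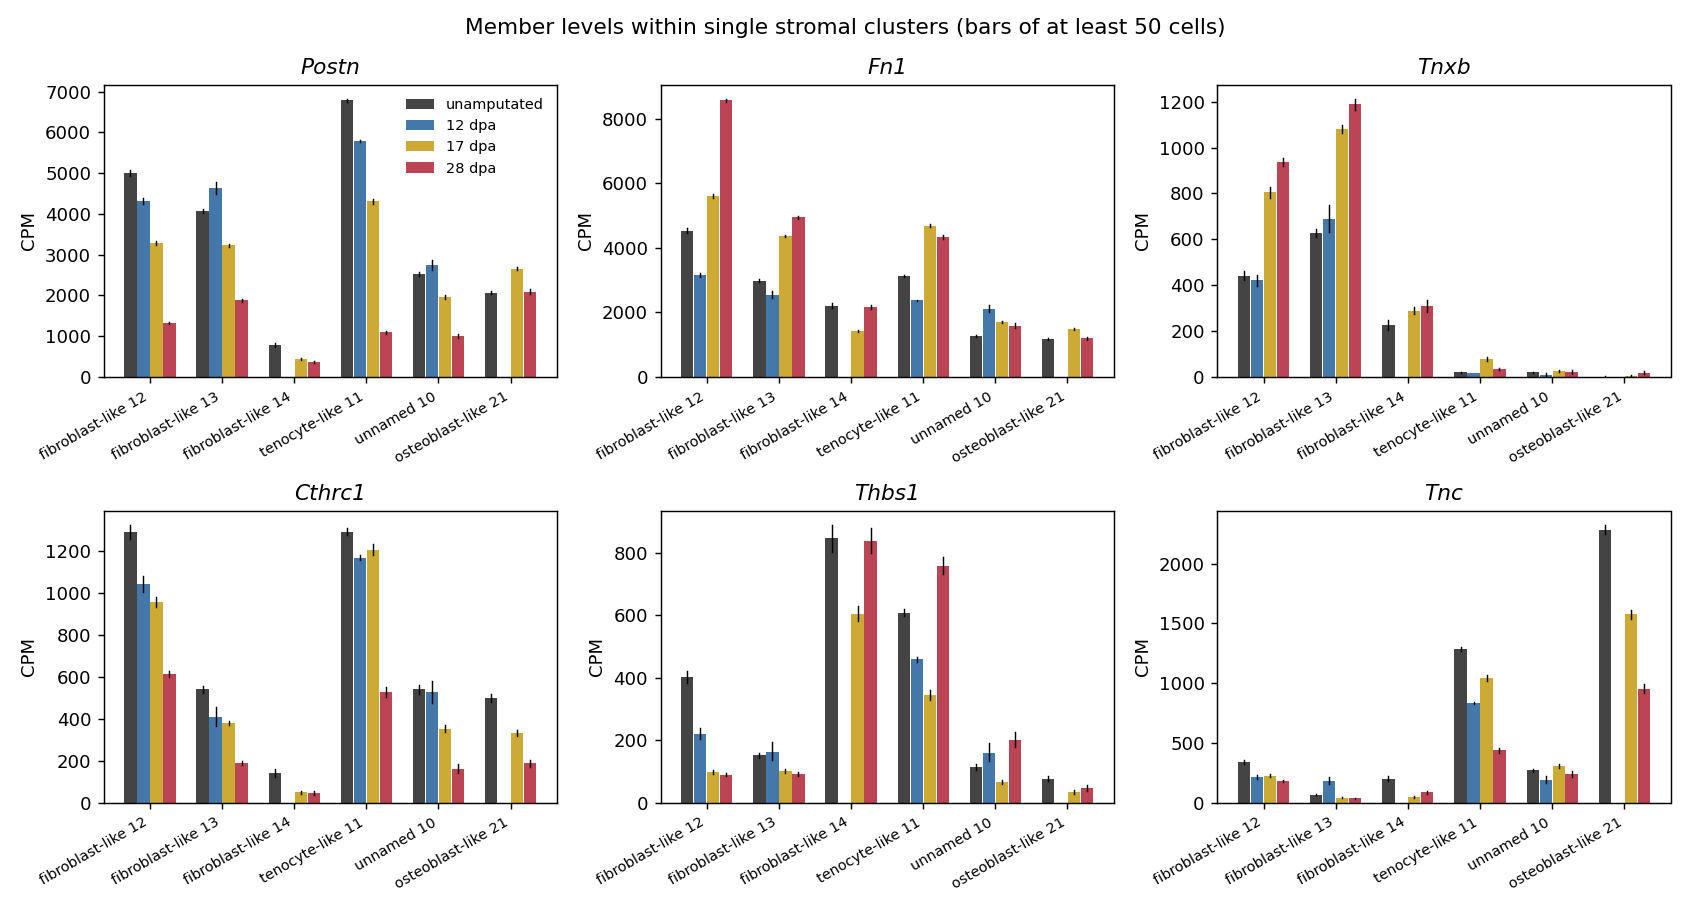
CPM of 6 members in single stromal clusters (groups of bars; 12 is led by Ccn3, 13 by Lsamp, 14 by Fgl2 and 10 by Chad) and 4 libraries (colours), with exact Poisson 95% intervals as black lines; a missing bar is a cluster of under 50 cells in that library. Postn is lowest at 28 dpa in the 3 fibroblast-like clusters, in the tenocyte-like and in the unnamed one, and stands at 2061 CPM unamputated and 2090 CPM at 28 dpa in the osteoblast-like one.

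Osteoblast-like cells held Postn near its unamputated level while Tnc was lower. Postn was 2061 CPM unamputated, 2656 at 17 dpa and 2090 at 28 dpa, with log2 ratios of 0.37 and 0.02. Tnc was 2285, 1575 and 952 CPM, with ratios of -0.54 and -1.26. At 28 dpa, 1 member was at least 2-fold higher, beside 3.59% of genes, and 3 were lower, beside 9.20%. The higher one was Tnxb, which reached only 18.7 CPM, and the lower ones were Tnc, Tnn (-1.07) and Cthrc1 (-1.40). At 17 dpa Thbs1 was 33.3 CPM against 76.5 unamputated (-1.17). Sparc was at 0.61 and 0.92. The 15 dissociation-response genes summed to 1708, 3711 and 4030 CPM in osteoblast-like cells, and their part in these values was not tested. In the unnamed stromal cluster led by Chad and Comp, the 28 dpa ratios were -1.32 for Postn and -1.73 for Cthrc1, and -0.18 for Tnc. In Schwann-like cells Tnc was lower at 17 and 28 dpa (-1.73 and -1.45) while Postn was at -0.97 and -0.30. Mural-like cells had 397, 535, 216 and 153 CPM of Postn, a ratio of -1.37 at 28 dpa. The dissociation-response genes summed to 5393, 3306, 7013 and 9469 CPM in mural-like and 3940, 3014, 7374 and 6156 in Schwann-like cells. In the unnamed cluster they summed to 3622, 1123, 4236 and 6216 CPM, and their part in these values was not tested.

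When fibroblast-like, tenocyte-like and osteoblast-like cells were summed together, the change in their numbers entered the values. Pooled Tnc was 1011, 768, 486 and 236 CPM, pooled Tnn 752, 885, 310 and 251, and pooled Thbs2 746, 979, 348 and 324. Tnxb went the other way, with 203, 63.6, 592 and 764 CPM. At 12 dpa 0 members were at least 2-fold higher, beside 0.421% of genes, and 1 (Tnxb, -1.66) was lower, beside 3.96%. At 17 dpa 1 (Tnxb, 1.54) was higher, beside 1.50%, and 4 (Tnn, Thbs1, Thbs2 and Tnc) were lower, beside 1.42%. At 28 dpa 2 (Tnxb, 1.91, and Fn1, 1.03) were higher, beside 3.25%, and 5 (Tnc, Postn, Tnn, Cthrc1 and Thbs2, from -2.10 to -1.20) were lower, beside 5.23%. Tnn and Thbs2, at -1.58 and -1.20 in the pool at 28 dpa, were at 0.02 and 0.12 in the fibroblast-like class, whose values by cluster are given above, and at -0.36 and -0.86 within tenocyte-like cells. Postn, at -1.82 in the pool, was past 2-fold within both classes.

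Of 20 other matricellular genes, 18 passed the 10 CPM minimum in fibroblast-like cells. At 12 dpa 1 was at least 2-fold higher and 5 lower, beside 1.51% and 6.25% of all genes. At 17 dpa the counts were 1 and 2, beside 0.398% and 1.08%, and at 28 dpa 1 and 5, beside 1.99% and 5.23%. The higher one was Spp1, encoding osteopontin, at each time, with 5.92, 27.3, 24.0 and 35.8 CPM. In tenocyte-like cells it was 131, 116, 500 and 3555 CPM. In the stromal pool, which includes osteoblast-like cells, Spp1 was far higher than in fibroblast-like cells, at 1072, 107, 3376 and 3152 CPM. The part of free RNA in the low fibroblast-like values was not tested. Among the lower ones were Smoc1, a SPARC relative (14.4, 2.08, 3.21 and 2.30 CPM), and Npnt, encoding the integrin ligand nephronectin (20.6, 2.08, 23.3 and 5.64 CPM). Ccn1, an integrin-binding early-response gene, was 201, 99.9, 93.6 and 79.5 CPM, and Edil3, encoding another integrin ligand, 161, 63.7, 82.0 and 46.6 CPM.

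Of 20 receptor genes, mainly integrins, 14 passed the minimum in fibroblast-like cells. At 12 dpa 0 were higher and 1 lower (beside 1.51% and 6.25% of all genes). At 17 dpa the counts were 0 and 0 (0.398% and 1.08%), and at 28 dpa 0 and 1 (1.99% and 5.23%). The lower shares at 12 and 28 dpa were near those of all genes. The lower ones, given as single genes, were Itga8, encoding an integrin chain that binds tenascin and nephronectin (12.2 CPM unamputated and 2.08 at 12 dpa), and Itgb8, encoding the chain of a TGF-beta-activating integrin (31.7 CPM unamputated and 11.7 at 28 dpa). Of 15 TGF-beta ligands, receptors and response genes, 15 passed, with 2 higher and 1 lower at 12 dpa (beside 1.51% and 6.25%), 0 and 0 at 17 dpa (0.398% and 1.08%), and 2 and 1 at 28 dpa (1.99% and 5.23%). Ltbp2, encoding a fibrillin-binding protein of the latent TGF-beta binding family, was 34.3, 75.7, 53.9 and 114 CPM. Timp1, a metalloproteinase inhibitor, was 201, 723, 180 and 401 CPM. Lox, encoding a collagen cross-linking enzyme, was 312 CPM unamputated and 155 at 28 dpa, and Tgfbr3, encoding betaglycan, 575 unamputated and 280 at 12 dpa.

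Across 57 class-by-library sums, which share libraries and depth, the closest pairs of members were Postn with Thbs2 (Pearson r = 0.932) and Tnc with Postn (r = 0.903), and the least alike were Sparc and Tgfbi (r = -0.224). Outside the members, Postn was most like Col5a1, Col5a2 (both r = 0.957) and Gpr153 (0.955), and Thbs2 was most like Col5a2 (0.965), Col5a1 (0.947) and Col1a2 (0.935). Sparc was most like Serpinh1 (0.968), a collagen chaperone gene, Plod2 (0.959) and Mxra8 (0.957). Tnn resembled Itgbl1 (0.945), Col24a1 (0.943) and Fmod (0.938), and Tnc resembled 8030451A03Rik (0.933), the gene that overlaps it, Kirrel (0.928) and Col5a2 (0.925). Cthrc1 was closest to Mmp2 (0.912), Pdgfra (0.901) and Aebp1 (0.889), and Fn1 to Colec12 (0.880), Htra3 (0.875) and Nupr1 (0.873). The looser likenesses were those of Tnxb to Tmod2 (0.848), Ltbp4 (0.843) and Ackr3 (0.842), of Tgfbi to Sirpa (0.783), Psap (0.780) and Stx3 (0.779), and of Thbs1 to Gm13986 (0.779), Prdx5 (0.744) and Ptgs2 (0.714). These are descriptions over classes, which are not independent samples.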

How the data were processed

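The deposited values were whole-number UMI counts per gene and cell. They were made with Cell Ranger 7.1.0 on the mm10 build, per the submitters' processing notes, from 10x Chromium 3′ v3 libraries, per the labels' protocols. The annotation, strand setting and cell-calling settings are not given in the sources used here. Barcodes were dropped below 500 genes or 1000 UMIs, or above 10% mitochondrial UMIs. The highest Scrublet scores were removed at 0.8% per 1000 barcodes, which took out 7.05% to 12.8% of barcodes. The libraries were clustered together in scanpy 1.11.5 on 2000 variable genes, 30 principal components and 15 neighbours (Leiden resolution 1). The members, the gene lists, mitochondrial and Y-linked genes, Xist and Tsix were left out of clustering.

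Clusters were named from markers of 23 classes. A name needed at least 3 markers, each in 25% of cells, and 10 leading genes without more markers of another class. This scoring, and the pooling of pericytes with smooth muscle and of monocytes with dendritic cells, were chosen after the clusters were seen. The members and lists were chosen with earlier results of these data known. UMIs were summed per class and library where there were at least 50 cells. Sums carry exact Poisson and shares exact Clopper-Pearson 95% intervals, which cover counting error only. Libraries held 92313847 to 197140774 UMIs. The ratio was tested on simulated Poisson counts with known fold changes. These counts hold no variation between libraries or in cell mix, so the test bears on the calculation only. Besides the members, the genes named from each other list are those with the 3 largest changes past 2-fold in fibroblast-like cells at each time, and for likeness the genes of highest r with at least 50 CPM in some class. One gene that this rule would name is not reported here. Alternatives covered cell filters, doublets, clustering, scaling, pseudocounts, thinning, sex and pooling. Those for tenocyte-like cells, and the use of single clusters, were added after the data were seen.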

Additional observations from a re-analysis of the deposited data

Results flagged for a closer look

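Tgfbi in Schwann-like cells was at least 2-fold higher at 12 dpa and at least 2-fold lower at 17 dpa, with 35.1, 73.7, 15.9 and 37.1 CPM in the unamputated, 12, 17 and 28 dpa libraries. The log2 ratios to the unamputated library differed by 2.14 between the 2 times. The difference was not tested, and with no doublets removed the 17 dpa ratio was 0.10 in place of -1.09.

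Tnxb in pooled stromal cells was at least 2-fold lower at 12 dpa (63.6 CPM against 203 unamputated) and at least 2-fold higher at 17 dpa (592 CPM), a difference of 3.20 on the log2 scale that was not tested. Tenocyte-like cells, with 16.6 CPM of Tnxb at 12 dpa, made up 1821 of the stromal cells in that library and fibroblast-like cells 297.

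Xist, which is expressed from the inactive X chromosome of female cells and was used in no comparison, reached 458 CPM over the kept cells of the 12 dpa library. It was at most 0.153 CPM in the other libraries, although the labels describe pooled sexes for all of them.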

How the results depend on the processing

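With 1 library per group, no library could be left out, and the settings below changed only the cells and the scaling. No paired analysis was possible because each group had 1 library and no test was made. In fibroblast-like cells at 12 dpa, the count of members at least 2-fold lower was 0 and became 1 at Leiden resolution 2 and with stromal cells pooled. At 17 dpa the higher count, 0, became 1 with the looser cell filter, with no doublets removed, at resolution 2 and with pooling, and the lower count, 0, became 3 with the looser filter, 2 at resolution 2 and 4 with pooling. At 28 dpa the higher count, 1, became 2 with the looser filter, at resolution 2 and with pooling, and 0 with the unamputated cluster mix and as a mean of single cells. With no doublets removed it was again 1, but Tnxb in place of Fn1. The lower count, 2, became 4 with the looser filter and at resolution 2, 5 with pooling, and 1 with no doublets removed, at resolution 0.5, with median-of-ratios scaling and as a mean of single cells. In tenocyte-like cells the higher count at 17 dpa, 1, became 0 with no doublets removed, the lower count there, 0, became 1 with the stricter and looser filters and with members kept in clustering, and the higher count at 28 dpa, 0, became 1 with both filters and at resolution 2. The lower count there at 28 dpa, 4, was 5 with the stricter filter and 3 with median-of-ratios scaling, thinned sums or male cells only. The causes were not tested.

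Of 670 recomputed ratios in fibroblast-like and tenocyte-like cells, most of them of members with no call, 377 moved beyond their counting interval and 293 did not. None of the 8 called ratios turned sign. In the other classes 14 of 2510 recomputed ratios were of called values that turned sign, all in Schwann-like, macrophage-like, monocyte and dendritic-like, lymphatic endothelial-like or T and NK-like cells. Levels near those of T and NK-like cells, and differences at 12 dpa, where time and sex coincide, are the least certain.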
